A study of Mus musculus with 20 samples.

Results

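The genes described here are 10 genes of major histocompatibility complex (MHC) antigen presentation, H2-K1, H2-D1, H2-T23, B2m, Tap1, Tap2, Tapbp, H2-Aa, H2-Ab1 and Cd74, chosen by symbol from the 39179 genes listed in the count files. All 10 were found. The RNA came from the striatum of 20 male mice of generation 17, about 6.5 months old, of a High-Active line, selected for activity in the home cage, and an unselected Control line from the same intercross of inbred strains. There is 1 line of each kind, so effects of selection and of drift cannot be told apart. Of each line, 5 mice received 0.25 mg/kg d-amphetamine by intraperitoneal injection and 5 received saline, 2 hours before collection. The 4 groups are named here by line and injection, as in Control saline. The labels give a sire and a dam for every mouse, which make 8 families in the Control line and 5 in the High-Active line. The authors describe the mice as coming from different families, which differs from these labels. Families here follow the labels. Between 32388971 and 53710713 reads were counted on genes per mouse. The tissue label was checked with 9 tested markers of striatal neurons, whose summed level was between 3665 and 5823 CPM in every mouse. Levels are given as CPM, the count of a gene scaled to a common number of reads, on library sizes scaled by the trimmed mean of M values (TMM), and a call means a false discovery rate (FDR) under 0.1 over all genes tested.

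MHC class I molecules sit on most nucleated cells and show short peptides from proteins made inside the cell to CD8 T cells. Each consists of a heavy chain, such as the products of H2-K1, H2-D1 and H2-T23, and the light chain beta-2 microglobulin from B2m. Tap1 and Tap2 form the transporter that brings peptides into the endoplasmic reticulum, and tapasin, the product of Tapbp, holds the empty class I molecule at that transporter. MHC class II molecules, here the I-A chains H2-Aa and H2-Ab1, show peptides from outside the cell to CD4 T cells on a few cell types, and Cd74 encodes the invariant chain that guides them. In healthy brain tissue these genes are expressed mainly in microglia, in macrophages around vessels, in endothelial cells and, for class I, also in neurons.

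In the GRCm38 annotation, 8 of the 10 genes lie on chromosome 17 in the MHC, from Tapbp at 33915899 to the end of H2-T23 at 36032855. B2m lies on chromosome 2 from 122147686 to 122153083, and Cd74 lies outside the MHC. The RefSeq promoter table (GRCm38.p6) held 7 of the 10 genes. The class I and class II promoters are known for a pair of boxes at a fixed spacing, the X2 box and the Y box, that bind the complex through which NLRC5 or CIITA acts. In the 200 bases before the transcript start, TGACG followed after 20 or 21 bases by ATTGG, searched on both strands, was found in H2-K1, H2-D1, B2m and H2-Aa, against 47 of 32851 promoters in the table (0.143%). The spacing was chosen after these sequences had been read. TGACG alone stood in 15.7% of the promoters and ATTGG alone in 29.3%. The boxes, in capitals, are shown because they are shared by the genes whose levels are compared here.
H2-K1, chr17:34000359-34000388, minus strand: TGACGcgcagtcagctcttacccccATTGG
H2-D1, chr17:35262993-35263022, plus strand: TGACGcgctggcaggtctcactatcATTGG
B2m, chr2:122147609-122147638, plus strand: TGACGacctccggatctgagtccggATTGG
H2-Aa, chr17:34287867-34287897, minus strand: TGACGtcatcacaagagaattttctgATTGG
The H2-D1 stretch overlaps exons of other annotated transcripts of that gene, and the H2-Aa stretch holds a second TGACG on the other strand that overlaps the first. A match of these letters is a description of the sequence and not a measurement of binding. The pair was not found in this window of H2-T23, Tap1 or Tapbp, of which 154, 200 and 200 bases lie in annotated exons.

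H2-K1 and B2m were called lower in High-Active mice in the comparison below, so their 200 bases before the transcript start are given in full. Capitals mark the X2 and Y letters, the kappa B type letters GGGATTCCC and the interferon response type letters TTTCNNTT, each searched on both strands and none overlapping another.
H2-K1, chr17:34000348-34000547, minus strand: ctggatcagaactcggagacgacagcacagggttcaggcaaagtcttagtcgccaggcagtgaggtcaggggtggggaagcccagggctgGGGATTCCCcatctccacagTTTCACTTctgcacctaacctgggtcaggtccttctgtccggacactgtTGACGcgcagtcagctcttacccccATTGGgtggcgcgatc
B2m, chr2:122147487-122147686, plus strand: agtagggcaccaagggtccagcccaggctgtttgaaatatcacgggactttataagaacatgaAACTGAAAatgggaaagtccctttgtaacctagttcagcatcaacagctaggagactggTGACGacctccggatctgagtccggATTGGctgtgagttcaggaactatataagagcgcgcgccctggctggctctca
GGGATTCCC was found in H2-K1 and H2-D1 among the 7 genes and in 0.213% of all promoters. For the kappa B type only this exact string was searched, so the share is a description and not a test. TTTCNNTT was found in H2-K1, H2-D1, H2-T23 and B2m and in 17.0% of all promoters.

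Per kilobase of exon, B2m was the highest of the 10 genes by far, at 57.1 CPM per kb ± 8.4 (SD, n = 20 mice), and it was above every other gene in all 20 mice. H2-D1 followed at 4.03 ± 1.5 and Tapbp at 3.78 ± 0.533, and their order held in 11 of the 20 mice only. H2-K1 at 1.93 ± 0.634 and Tap2 at 1.81 ± 0.25 likewise did not separate, with H2-K1 higher in 10 mice. H2-T23 came next at 1.06 ± 0.351 CPM per kb. Cd74 stood at 0.482 ± 0.353 and Tap1 at 0.318 ± 0.0559, in that order in 15 of 20 mice. The class II chains were lowest, H2-Ab1 at 0.159 ± 0.134 and H2-Aa at 0.0775 ± 0.0707 CPM per kb. Below the step from B2m to H2-D1, the ranges of neighbours in this order overlapped. The length used is that of all annotated exons of a gene together, which can exceed its longest coding transcript. It was 2938 against 1619 bases for H2-K1, 3781 against 3442 for Tap2 and 860 by either measure for B2m. The order of the genes below B2m depends on the length used.

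Between the lines, 2 of the 8 genes that passed the low-count filter were called, H2-K1 and B2m, and both were lower in High-Active mice. Over all 14792 genes tested, 14.5% were called in either direction and 6.9% were called lower in High-Active mice. The filter, more than 1 CPM in at least 3 mice, removed H2-Aa and H2-Ab1. The median log2 fold change over the 8 genes was -0.19, and over all genes tested it was -0.00093. The remaining heavy chains and the peptide-loading genes did not pass. In bulk tissue, fewer cells of a type and less RNA per cell cannot be told apart.

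**Figure D1:**
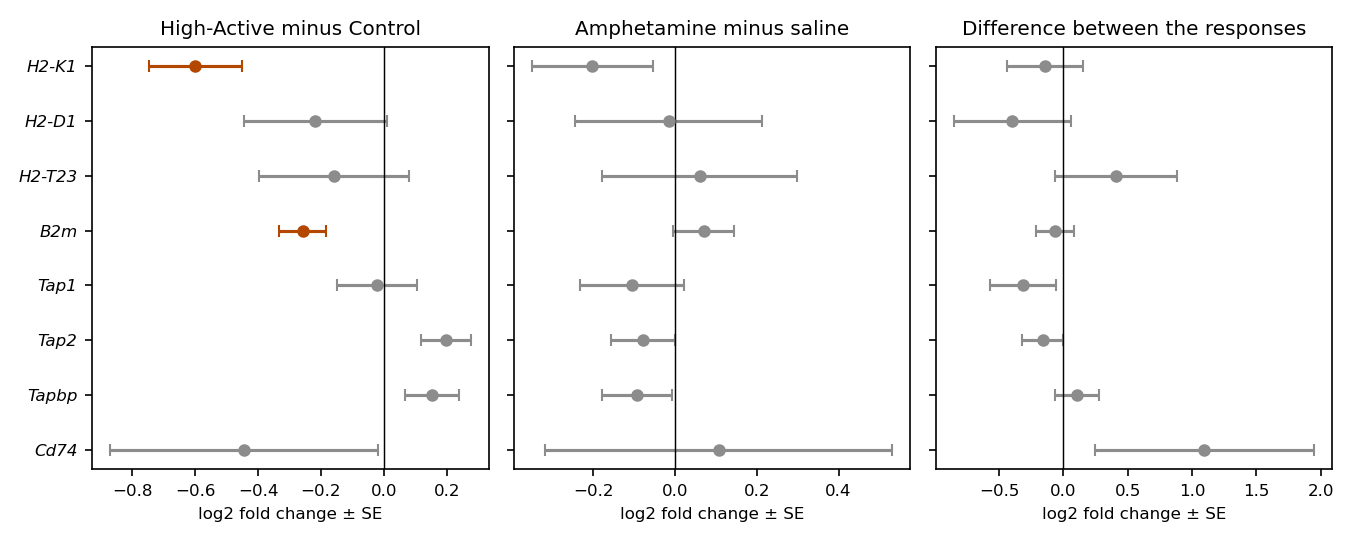
Log2 fold change ± standard error (x axis, with its own range in each panel) of the 8 tested genes for High-Active minus Control, for amphetamine minus saline and for the interaction (High-Active response minus Control response), from the edgeR model with 20 mice. Orange points passed an FDR of 0.1, which H2-K1 and B2m did between the lines, and grey points did not.

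H2-K1 encodes one of the classical class I heavy chains of these mice, and it had the largest difference between the lines among the 8 genes tested. In Control saline mice H2-K1 stood at 9.6, 7.9, 5.93, 6.54 and 5.76 CPM, and in Control amphetamine mice at 9.5, 8.43, 3.62, 5.68 and 5.39 CPM. In High-Active saline mice it was 6.11, 4.88, 4.69, 4.41 and 4.68 CPM, and in High-Active amphetamine mice 4.42, 4.86, 3.17, 4.21 and 3.84 CPM. All 10 High-Active mice lay below the Control median of 6.24 CPM, and 5 Control mice lay above every High-Active mouse. The ranges still overlapped, since Control amphetamine mouse 409, at 3.62 CPM, was lower than 9 of the High-Active mice. The mean was 6.83 CPM ± 1.95 in Control and 4.53 ± 0.761 CPM in the High-Active line (SD, n = 10 mice each). The log2 fold change was -0.60 (standard error, SE, 0.15, adjusted p = 0.0201, edgeR quasi-likelihood test), a fold of 0.66 with an interval of 2 standard errors from 0.538 to 0.81.

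H2-K1 was less spread in High-Active than in Control mice, with standard deviations of log2 CPM of 0.243 and 0.431, a contrast that was not tested. Over family means, High-Active minus Control was -0.53 log2 CPM (two-sided exact permutation test over 5 High-Active and 8 Control families, p = 0.001554, the smallest that this design allows). The call was lost when either treatment was taken alone, with log2 fold changes of -0.53 in saline mice (adjusted p = 0.198) and -0.67 in amphetamine mice (adjusted p = 0.179), contrasts that rest on 5 mice per group. It was also lost with the mean of 8 cortical neuron markers as a covariate (-0.55, adjusted p = 0.136). Those markers were lower in High-Active mice for 7 of 8 genes, with Tbr1, Slc17a7 and Neurod2 called, and their summed level ran from 162 to 962 CPM in High-Active and from 294 to 825 CPM in Control mice. Their part in the difference was not tested.

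B2m, the light chain that every class I molecule needs at the cell surface, was lower in High-Active mice by a smaller step. In Control saline mice B2m stood at 47.8, 56.5, 51.1, 42.4 and 59.8 CPM, and in Control amphetamine mice at 57.3, 52.7, 52.8, 52.6 and 61.4 CPM. In High-Active saline mice it was 46.2, 42.8, 40.5, 45.2 and 45.7 CPM, and in High-Active amphetamine mice 45.1, 59.5, 39.6, 44.7 and 37.6 CPM. Of the 10 High-Active mice, 9 lay below the Control median of 52.8 CPM, the exception being amphetamine mouse 415. The lowest Control mouse, saline mouse 477, lay within the High-Active range. The means were 53.4 CPM ± 5.66 in Control and 44.7 ± 5.97 CPM in the High-Active line (SD, n = 10 mice each), and the log2 fold change was -0.26 (SE 0.07, adjusted p = 0.0413, edgeR quasi-likelihood test).

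The difference in B2m over family means was -0.26 log2 CPM (two-sided exact permutation test over 5 against 8 families, p = 0.02486). The edgeR call was lost with counts summed over families (-0.28, adjusted p = 0.109), with the cortical markers as a covariate (-0.29, adjusted p = 0.116) and within saline (-0.23, adjusted p = 0.274) or amphetamine mice (-0.29, adjusted p = 0.249). With the mean of 15 microglia markers as a covariate, both H2-K1 and B2m stayed under the threshold. The summed level of these markers ranged from 470 to 580 CPM in Control and from 458 to 579 CPM in High-Active mice, while 6 of 15 were called, in both directions, with Itgam and Fcrls higher and Csf1r, C1qc, Aif1 and Trem2 lower in High-Active mice. Of 10 endothelial markers Esam was called lower, and of 5 red blood cell markers Hba-a2 was called higher. Their part in the levels of H2-K1 and B2m was not tested.

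**Figure D2:**
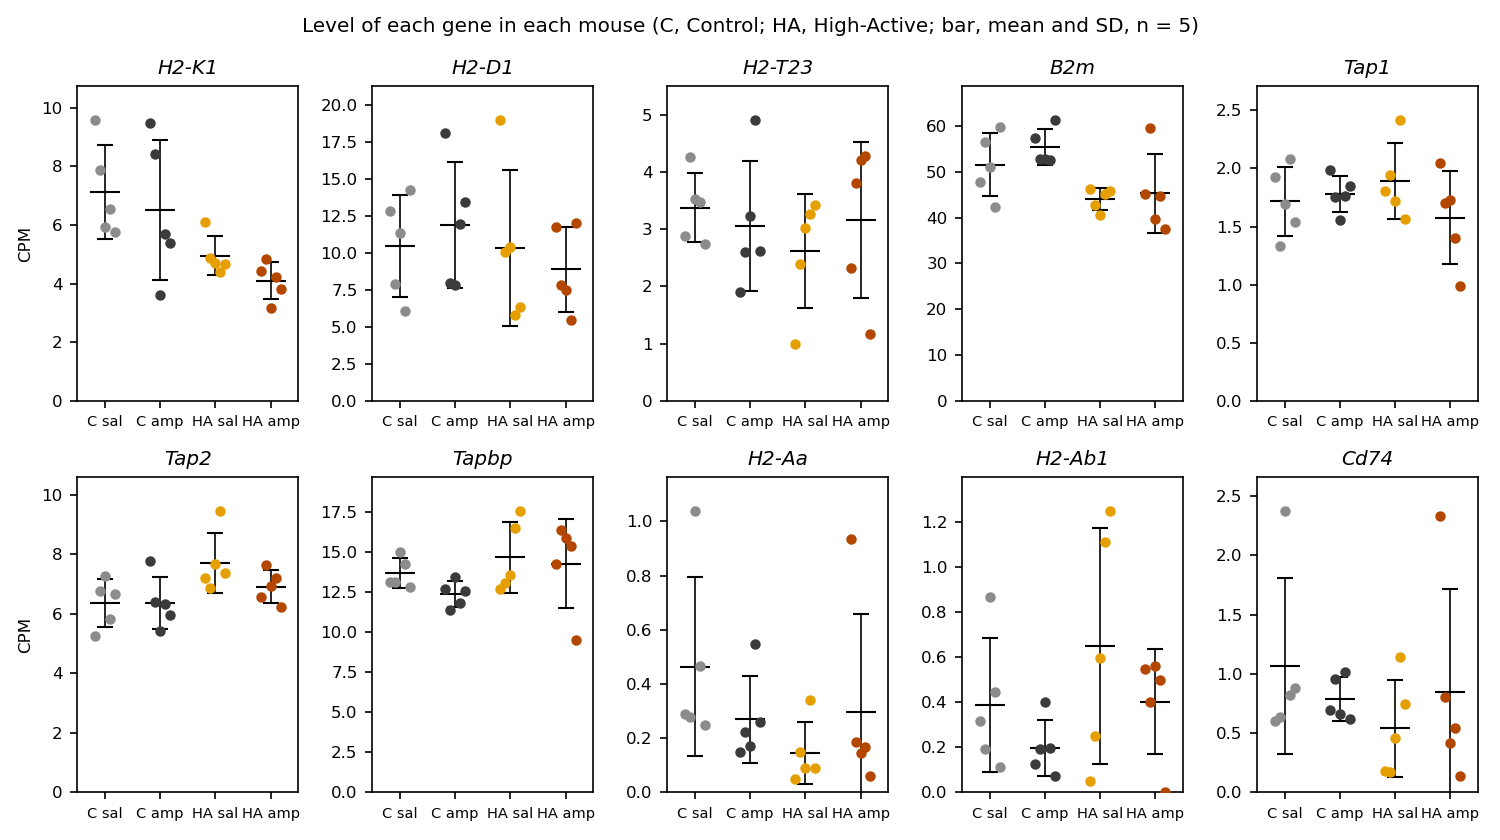
CPM (y axis, linear from 0) of each of the 10 genes in each mouse, in Control saline (C sal), Control amphetamine (C amp), High-Active saline (HA sal) and High-Active amphetamine (HA amp) mice, with the mean and SD of the 5 mice as bars cut at 0. All 10 High-Active mice are below the Control median of 6.24 CPM for H2-K1, and class II genes are spread widely within groups.

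H2-D1, the other classical heavy chain of the set, differed between the lines by less than its spread among mice. Control saline mice had 12.8, 7.9, 11.3, 6.05 and 14.3 CPM of H2-D1 and Control amphetamine mice 18.1, 7.99, 7.85, 12 and 13.5 CPM. High-Active saline mice had 19, 10.1, 10.4, 5.83 and 6.38 CPM and High-Active amphetamine mice 11.8, 7.83, 7.48, 5.47 and 12 CPM. The lines overlapped over almost their whole range, and the highest and the lowest of the 20 mice were both High-Active. The log2 fold change was -0.22 (SE 0.23, adjusted p = 0.581). The ratio of H2-D1 to H2-K1 counts went from 0.925 to 2.5 in Control mice and from 1.3 to 3.13 in High-Active mice, with medians of 1.91 and 2.14.

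H2-T23 encodes Qa-1, a class I molecule of low variability that presents signal peptides of other class I chains to NK cell receptors. In Control saline mice its levels were 2.87, 4.25, 3.54, 3.48 and 2.74 CPM, and in Control amphetamine mice 1.91, 2.61, 3.22, 4.91 and 2.61 CPM. In High-Active saline mice they were 0.993, 2.39, 3.02, 3.27 and 3.43 CPM, and in High-Active amphetamine mice 2.31, 3.81, 4.2, 4.28 and 1.17 CPM. The lowest values, 0.993 and 1.17 CPM, belonged to mice 197 and 905, which had the same parents, one injected with saline and the other with amphetamine. The log2 fold change between the lines was -0.16 (SE 0.24, adjusted p = 0.713), and its sign changed in 2 of 33 alternative settings. The gene A930015D03Rik lies on the opposite strand over all 3083 bases of H2-T23, with 3017 counts over the 20 mice against 2552 for H2-T23. B2m is likewise covered by Patl2 on the opposite strand, which had 183 counts. The strand setting of the counting is not stated, so reads from the pair may not have been kept apart.

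Class I heavy chains are near copies of each other. The longest stretch shared without a difference by the longest coding transcripts of H2-K1 and H2-D1 is 91 bases of coding sequence in exon 4 of each, shown here to give the extent of that likeness. It is shorter than the reads of 100 bases.
H2-K1 chr17:33997343-33997433 (minus strand) and H2-D1 chr17:35265911-35266001 (plus strand): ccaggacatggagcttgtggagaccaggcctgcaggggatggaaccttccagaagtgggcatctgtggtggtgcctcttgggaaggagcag
At the read length of 100 bases, 0 of the 1520 stretches of the H2-K1 transcript occurred in a transcript of another gene, against 4.64% for H2-D1 and 7.28% for H2-T23. H2-D1 shared most with H2-Q1 and Gm7030, and H2-T23 with Gm7030 and Gm11127. H2-D1 and H2-T23 also shared stretches of that length with each other. At 25 bases the shares were 32.5% for H2-K1, 35.4% for H2-D1 and 56.6% for H2-T23, and 0 of 836 stretches for B2m. These shares come from the reference genome, and the alleles of these mice, which descend from several inbred strains, were not analysed here. Levels of the heavy chains, H2-K1 included, are uncertain to at least that extent. The shares do not measure how well reads of other alleles align to the reference, which was not tested.

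Of the 3 peptide-loading genes, none was called between the lines, and Tap2 and Tapbp were on the higher side in High-Active mice. Tap2 stood at 5.25, 6.76, 7.26, 5.83 and 6.66 CPM in Control saline mice and at 7.76, 6.4, 5.41, 6.33 and 5.96 CPM in Control amphetamine mice. In High-Active saline mice it was 7.2, 6.87, 7.66, 9.45 and 7.38 CPM, and in High-Active amphetamine mice 6.56, 7.64, 6.92, 7.2 and 6.24 CPM. The lines overlapped, with 9 of 10 High-Active mice above the Control median of 6.36 CPM and 4 Control mice below every High-Active mouse. Its log2 fold change was 0.20 (SE 0.08, adjusted p = 0.119), and it fell under the threshold with DESeq2 (adjusted p = 0.0959) and without Control mouse 369 (0.0618), Control mouse 469 (0.0889) or High-Active mouse 483 (0.0921). Within groups, Tap2 had a Pearson correlation of 0.71 with the mean of 6 choroid plexus markers over the 20 mice, the strongest of the 80 relations between the 10 genes and 8 marker lists. The summed level of those markers ranged from 21.9 to 739 CPM in Control and from 32.4 to 908 CPM in High-Active mice. Their part in the level of Tap2 was not tested.

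Tapbp stood at 13.1, 13.1, 15, 14.3 and 12.8 CPM in Control saline mice and at 12.7, 11.4, 13.4, 11.8 and 12.5 CPM in Control amphetamine mice. In High-Active saline mice it was 12.7, 13, 13.5, 16.5 and 17.5 CPM, and in High-Active amphetamine mice 14.3, 16.3, 15.8, 15.3 and 9.49 CPM. Of the High-Active mice, 5 exceeded every Control mouse, while amphetamine mouse 905 was lower than all other mice. The log2 fold change was 0.15 (SE 0.09, adjusted p = 0.275). Without mouse 905 it was 0.21 and passed (adjusted p = 0.0506), and without both 197 and 905 it was 0.23 (adjusted p = 0.0356), a setting chosen after the values of these mice had been seen. Zbtb22 lies on the same strand over 3422 bases of Tapbp, and reads that fall in both genes may not have been counted for either. Tap1, the partner of Tap2 in the transporter, stood at 1.92, 1.33, 1.69, 2.08 and 1.54 CPM in Control saline mice and at 1.98, 1.75, 1.55, 1.76 and 1.85 CPM in Control amphetamine mice. In High-Active saline mice it was 1.81, 1.94, 1.72, 2.42 and 1.57 CPM, and in High-Active amphetamine mice 2.05, 1.7, 1.73, 1.4 and 0.989 CPM. The highest and the lowest mouse were both High-Active, and Tap1 had 1.75 CPM ± 0.228 in Control and 1.73 ± 0.382 CPM in the High-Active line (SD, n = 10 mice each), with a log2 fold change of -0.02 (SE 0.13, adjusted p = 0.936).

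Class II transcripts were scarce and varied more among mice of a line than between the lines. Reads counted on H2-Ab1 were 12, 7, 41, 20 and 5 in Control saline mice, 5, 6, 14, 8 and 3 in Control amphetamine mice, 2, 10, 26, 39 and 55 in High-Active saline mice and 27, 13, 31, 24 and 0 in High-Active amphetamine mice. Reads on H2-Aa were 11, 10, 49, 21 and 11 in Control saline mice, 6, 7, 6, 22 and 11 in Control amphetamine mice, 2, 6, 4, 12 and 4 in High-Active saline mice and 46, 6, 8, 8 and 3 in High-Active amphetamine mice. Control mouse 469 and High-Active mouse 192 were the highest in H2-Aa, and the related mice 197 and 905 were the lowest in both genes. Neither gene passed the filter. In the model without a filter the log2 fold changes were -0.78 for H2-Aa (SE 0.45, adjusted p = 0.359) and 0.88 for H2-Ab1 (SE 0.52, adjusted p = 0.371), opposite in sign for the chains of 1 molecule.

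Cd74, whose product also serves as a receptor, ranged from 0.606 to 2.37 CPM in Control and from 0.141 to 2.33 CPM in High-Active mice. Its reads were 23, 23, 112, 37 and 39 in Control saline mice, 28, 30, 23, 41 and 26 in Control amphetamine mice, 7, 7, 20, 40 and 33 in High-Active saline mice and 115, 26, 23, 26 and 7 in High-Active amphetamine mice. No Control mouse was as low as 6 of the High-Active mice, and mouse 192 was close to the highest Control mouse, 469. The log2 fold change was -0.44 (SE 0.43, adjusted p = 0.541), and it was -0.87 without mouse 192 and -0.18 without mouse 469.

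The balance of the reads counted on the I-A chain genes differed among mice. Of the reads on H2-Aa and H2-Ab1 together, H2-Ab1 took 21.4% to 70% in Control mice, with a median of 45.5%, and 0% to 93.2% in High-Active mice, with a median of 71.7%. The share exceeded 50 percent in 2 Control and 7 High-Active mice. The 3 mice of the largest High-Active family had 86.7%, 76.5% and 75%, mice 886 and 415 of another family had 93.2% and 68.4%, and mouse 192 had 37%. The counts behind a share run from 3 to 90 reads, so the exact 95 percent binomial interval of mouse 905, with 0 of 3 reads, reaches 70.8%, while that of mouse 886 runs from 83.5% to 98.1%. These intervals cover counting error only, and the difference between the lines in this share was not tested. Whether alleles of the 2 genes align equally well to the reference was not tested either.

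**Figure D3:**
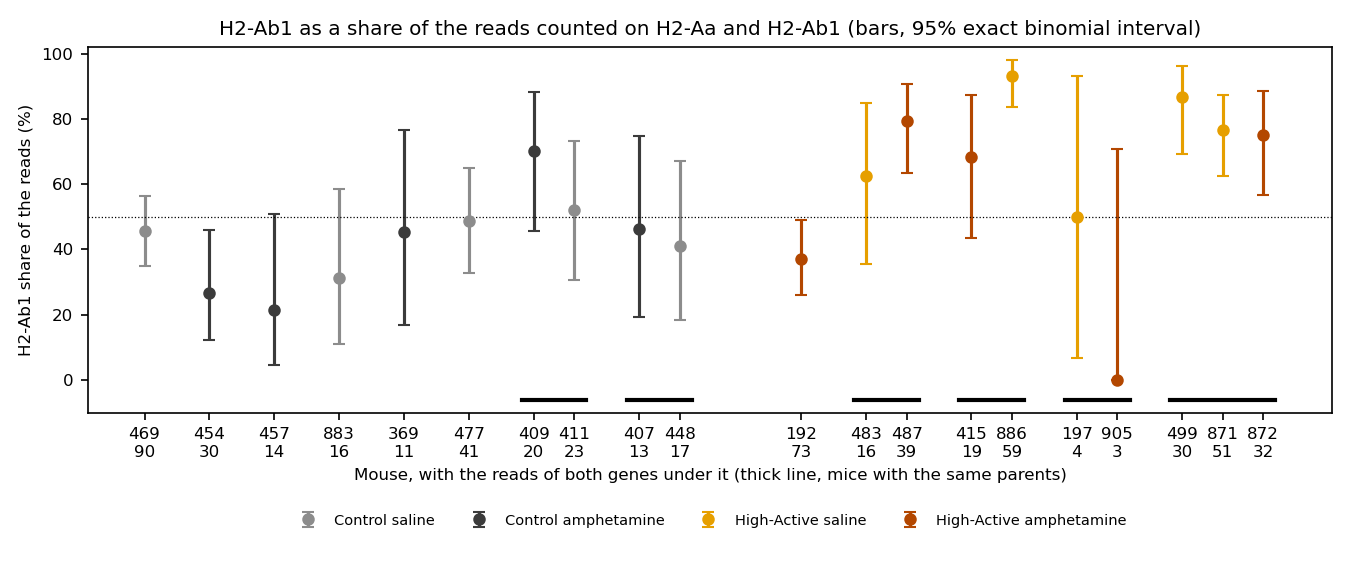
Share of H2-Ab1 (y axis, percent) among the reads counted on H2-Aa and H2-Ab1 in each mouse, with the 95 percent exact binomial interval, grouped by line (Control left, High-Active right) and by parents. Mouse numbers stand on the x axis with the reads of both genes beneath, and the share is over the dotted line at 50 percent in 7 High-Active and 2 Control mice.

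Markers of cells that carry class II were checked beside these genes. Among 11 markers of lymphocytes and dendritic cells, Cd3e, Cd3g, Ms4a1 and Xcr1 were at 0 in the median of the 20 mice, and 2 passed the filter, of which Cd4 was called (-0.51, adjusted p = 0.0163). Their summed level was 39.9 to 76.6 CPM in Control and 34.0 to 50.7 CPM in High-Active mice, and most of it was Cd4, at 51.1 CPM ± 10.7 in Control and 36.0 ± 6.09 CPM in the High-Active line (SD, n = 10 mice each). Of 7 markers of perivascular macrophages, cells known to carry class II in the brain, 4 were tested and none was called, and the summed level of the list was 11.2 to 21.6 CPM in Control and 13 to 20.9 CPM in High-Active mice. Within groups, the mean of these 4 markers had a Pearson correlation of 0.64 with H2-Aa, 0.62 with Cd74 and 0.47 with H2-Ab1 over the 20 mice, as a description. Their part in the class II levels was not tested.

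The remaining genes of the class I pathway, a list of 31 of which 19 were tested, held 4 called genes (21.1%), with a median log2 fold change of 0.09. Cd1d1, which presents lipids to NKT cells, rose by 0.61 (SE 0.17, adjusted p = 0.0336), with all 10 High-Active mice above the Control median. H2-M3, which presents formylated bacterial peptides, had a log2 fold change of 0.47 (adjusted p = 0.0933), and Mr1, which presents vitamin B metabolites, 0.36 (adjusted p = 0.0851). H2-Q4, a nonclassical heavy chain, was lower at -0.53 (SE 0.15, adjusted p = 0.0414), from 2.17 CPM ± 0.552 in Control to 1.5 ± 0.262 CPM in the High-Active line (SD, n = 10 mice each). The immunoproteasome subunit Psmb8 had -0.04 (adjusted p = 0.878), H2-T22 -0.17 (adjusted p = 0.794), and Psmb9, H2-Q7 and the class I activator Nlrc5, at 0.611 CPM ± 0.137 in Control and 0.564 ± 0.148 in High-Active mice, did not pass the filter.

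Of 17 listed genes of the class II pathway, 9 were tested and 1 was called. Ctss encodes cathepsin S, which degrades the invariant chain, and was lower in High-Active mice with a log2 fold change of -0.40 (SE 0.08, adjusted p = 0.00684), 8 of 10 of them below every Control mouse. H2-Eb1 and H2-Ea-ps did not pass the filter, nor did the class II activator Ciita, which had at most 0.0847 CPM in any mouse. Of 25 interferon response genes, 24 were tested and 3 were called (12.5%), all lower in High-Active mice. These were Gbp2 (-0.68, adjusted p = 0.0186), Oasl2 (-0.69, adjusted p = 0.0635) and Usp18 (-0.64, adjusted p = 0.0842), and the median of the list was -0.10. The shares called in these lists lie on both sides of the 14.5% over all genes.

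The interval from Tapbp to H2-T23 on chromosome 17 holds 202 listed genes, of which 83 were tested and 7 were called between the lines (8.43%, below the 14.5% of all genes). Lower in High-Active mice were H2-K1, H2-Q4, Aif1, which encodes a calcium-binding protein of microglia (-0.42, adjusted p = 0.0157), Pfdn6, a prefoldin subunit (-0.25, adjusted p = 0.0856), and Mrps18b, of the mitochondrial ribosome (-0.10, adjusted p = 0.0932). Higher were Ddr1, a collagen receptor (0.23, adjusted p = 0.0307), and Gtf2h4, a subunit of the general factor TFIIH (0.22, adjusted p = 0.0625). The median over the 83 genes was -0.02, with 36 genes positive and 47 negative. Called genes stood among uncalled neighbours. The count in the interval was 4 without mouse 457, 871 or 883 and up to 8 with any other mouse left out, and it was 11 without both 197 and 905.

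**Figure D4:**
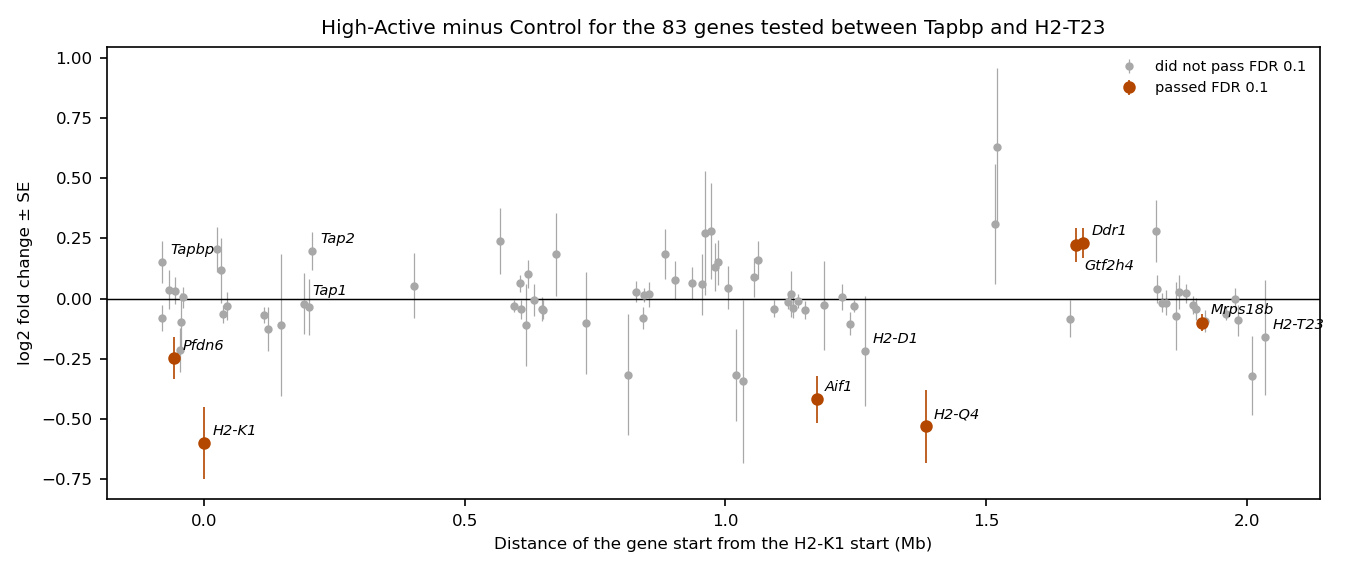
Log2 fold change ± standard error (y axis) of High-Active minus Control for the 83 tested genes between Tapbp and H2-T23, against the distance of each gene start from that of H2-K1 in Mb (x axis). The 7 orange genes passed an FDR of 0.1 and are spread over the interval, with the lowest value at H2-K1.

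Mice that shared both parents were compared with the other mice of their line, over 8 and 82 pairs. Families with several mice number 4 in the High-Active line and 2 in the Control line, so the lines weigh unequally in the pairs. Pairs with the same parents differed in H2-K1 by a median of 0.12 on the log2 scale and other pairs by 0.33, a ratio of 0.373 that was undercut by 3.56% of all genes tested. H2-K1 was less spread in High-Active mice, with standard deviations of log2 CPM of 0.243 against 0.431 in Control. Family and line can therefore not be told apart in its ratio. The ratio was 0.527 for Tap2, 0.649 for H2-T23, 0.6 for Cd74, 0.847 for B2m and 0.907 for H2-D1, against a median of 1.01 over all genes tested. Tap1, at 1.57, and Tapbp, at 1.23, differed more between mice of the same parents than between others. Of the 8 pairs, 3 differed in H2-K1 by more than the 0.33 of other pairs, namely Control mice 411 and 409 by 1.39 (9.6 and 3.62 CPM), High-Active mice 197 and 905 by 0.66 and High-Active mice 483 and 487 by 0.61. In 8 of the 10 genes the pairs with the same parents differed by less, but the pairs share mice and 3 come from 1 family, so no test was made. H2-T22, a nonclassical class I gene, had the smallest ratio of those shown, 0.226, which 0.933% of all genes undercut.

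**Figure D5:**
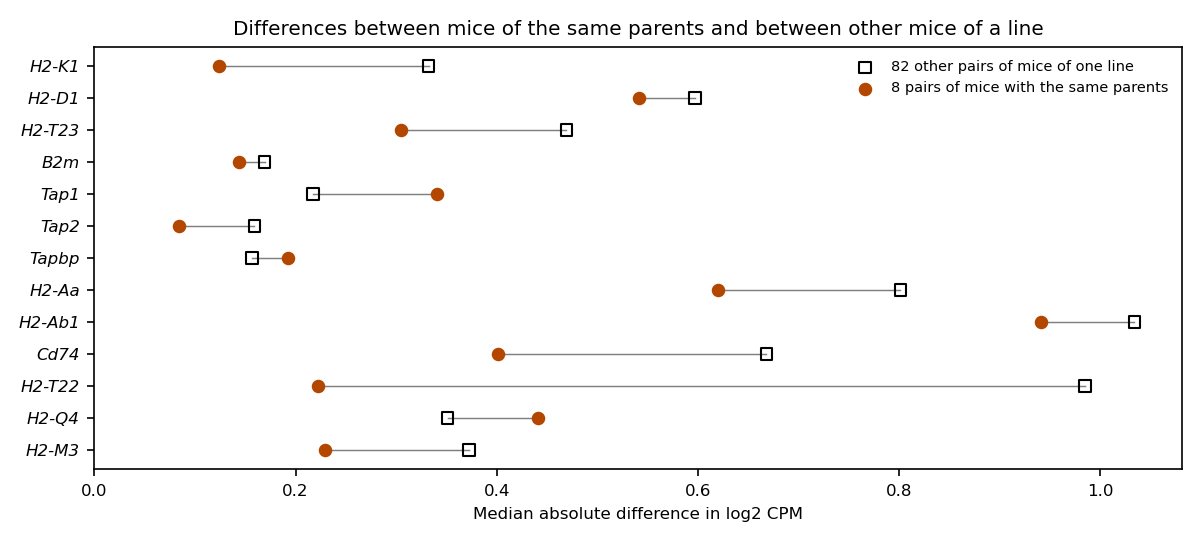
Median absolute difference in log2 CPM (x axis) between 8 pairs of mice with the same parents (filled circles) and between 82 other pairs within a line (open squares) for the 10 genes and for H2-T22, H2-Q4 and H2-M3. For H2-K1 the medians are 0.12 and 0.33, and for Tap1, Tapbp and H2-Q4 the order is the opposite. The lines are pooled and weigh unequally in the pairs.

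Across the 20 mice, with the mean of each group removed, 10 of the 45 pairs of these genes had a Pearson correlation over 0.5 in log2 CPM and 3 had one under -0.5, given here as a description. H2-Aa and Cd74 had 0.81 (Spearman 0.62), H2-Ab1 and Cd74 0.76 (Spearman 0.67), and H2-Ab1 and Tapbp 0.85 (Spearman 0.82). H2-D1 went against H2-T23 at -0.72 (Spearman -0.74) and against H2-Ab1 at -0.65. Several of these values leaned on mice 197 and 905, without which H2-T23 and H2-Ab1 moved from 0.78 to 0.36 and H2-T23 and Tapbp from 0.71 to 0.32, while H2-Ab1 and Tapbp kept 0.68 and H2-D1 and H2-T23 -0.59. H2-K1 and B2m, the called genes, had 0.19 with each other. The mice share families, and the genes on chromosome 17 are linked.

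Among all other genes tested, those most like each gene over the 20 mice with group means removed had Pearson correlations from 0.71 to 0.87. Of these 20 pairings, 2 for each gene and with 18 different partners, 7 lie on chromosome 17, which holds 4.69% of the genes tested. H2-T23 was nearest to C4a (0.82) and Gm4134 (0.81), H2-Ab1 to Cchcr1 (0.87) and Gm4134 (0.85), H2-D1 to BC023719 (0.80) and Notch4 (0.76), and H2-K1 to Cyp4f14 (0.79), all on chromosome 17, and to Golt1b (0.71) on chromosome 6. B2m was nearest to Gabarap (0.80) and Uqcr10 (0.75) on chromosome 11. Tap1 was nearest to Ccdc9b (0.87) and Ptpn21 (0.82), Tap2 to Shpk (0.82) and Slc5a5 (0.77), and Tapbp to Marveld1 (0.85) and Ltbr (0.81). H2-Aa was nearest to Cped1 (0.80) and Aldh1a2 (0.77), and Cd74 to Aldh1a2 (0.83) and Dffa (0.81). Each partner was picked for the highest correlations among all genes tested, so values of this size can arise by chance. They are given as a description and were not tested against chance. Unlike the pairs among the 10 genes, these pairings were not computed again with any mouse left out.

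None of the 8 tested genes was called for amphetamine, and 0.0% of the 14792 genes were called for it in the edgeR quasi-likelihood test (1844 had an unadjusted p under 0.05, and DESeq2 called 391 and the likelihood-ratio test 458). The largest of the fitted effects was in H2-K1, at -0.20 (SE 0.15, adjusted p = 0.62), followed by Cd74 at 0.11 (SE 0.42) and Tap1 at -0.10 (SE 0.13). The group means of H2-K1 went from 7.14 CPM ± 1.61 to 6.53 ± 2.39 in Control and from 4.95 ± 0.668 to 4.1 ± 0.637 CPM in the High-Active line (SD, n = 5 mice each), with overlapping ranges in both lines. B2m had 0.07 (SE 0.07) and Tapbp -0.09 (SE 0.09). Within 2 standard errors, the fold of amphetamine over saline ran from 0.709 to 1.07 in H2-K1 and from 0.948 to 1.16 in B2m. Without the filter, H2-Ab1 had -0.84 (SE 0.52, adjusted p = 0.641) and H2-Aa 0.15 (SE 0.44, adjusted p = 1).

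The responses of the lines were not separated either. For the interaction, 0.0% of all genes were called in the edgeR test (440 had an unadjusted p under 0.05, DESeq2 called 0 and the likelihood-ratio test 6), and the estimates of the 8 genes went from -0.40 for H2-D1 (SE 0.46) to 1.10 for Cd74 (SE 0.85), each with an adjusted p of 1. The value of Cd74 was 0.24 without mouse 192, 0.57 without mouse 469 and 1.54 without mouse 871. None of the 8 genes was called for amphetamine or the interaction in DESeq2, the likelihood-ratio test, limma-voom or any setting that left out 1 mouse.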

How the data were processed

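Striatal RNA of 20 mice was sequenced as paired 100-base reads. The authors aligned the reads to GRCm38 with TopHat2 2.0.10 and counted them per Ensembl gene with HTSeq 0.6.1, and the deposited values are whole-number read counts per gene and mouse; CASAVA 1.8.2, Bowtie2 2.1.0 and SAMtools 0.1.19 are also named in the submitters' processing notes. The kit marks strand, but the strand setting of the counting is not given in the sources used here. Rows that name no gene held 16.0 to 17.5% of the counts and were left out.

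Genes with more than 1 CPM in at least 3 mice were fitted with edgeR 4.0.16 (R 4.3.3), with TMM scaling, a mean for each of the 4 groups, quasi-likelihood tests and Benjamini-Hochberg adjustment over all genes tested. Log2 CPM used a prior count of 2. The fit was tested on simulated counts with known changes. The exact permutation test over families used scipy 1.17.1. The alternatives used DESeq2 1.42.0, limma 3.58.1, other filters and scalings, family sums, marker covariates and each mouse left out. They also included contrasts of the lines within each treatment, taken from the main fit. Labels give the mouse and its parents for each replicate, with a home-cage distance and a body mass that were not used here. The p-values measure the spread between these mice, which include relatives.

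The 10 genes were taken by symbol. Of the pathway lists, marker lists and the chromosome 17 interval, up to 5 called genes per direction with the smallest p were named, with 9 antigen presentation genes whatever their values, and the 2 tested genes most correlated with each of the 10. Genes and lists were chosen with earlier results of these data known. Promoters come from RefSeq (GRCm38.p6) and transcripts from GENCODE.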

Additional observations from a re-analysis of the deposited data

Results flagged for a closer look

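Within groups of 5 mice, 40 sets of log2 CPM values of the 10 genes were examined for 1 mouse far from the others. By Dixon's limit of 0.71 for the gap over the range, 3 stood out. The gaps were taken on log2 CPM with a prior count of 2. The values below are CPM, on which the gaps over the range differ and other sets may stand out. Chance gives about 1 in 20, or 2 of 40. Tapbp was 9.49 CPM in High-Active amphetamine mouse 905, against 14.3 to 16.3 CPM in the other 4. H2-Ab1 was 0.0 CPM in the same mouse, against 0.402 to 0.559 CPM, where its 0 reads allow up to 3. Cd74 was 2.37 CPM in Control saline mouse 469, against 0.606 to 0.884 CPM. The causes were not tested.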

How the results depend on the processing

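Between the lines, 2 of the 8 tested genes were called, and 0 in saline mice alone, 0 in amphetamine mice alone, 1 with counts summed over families (H2-K1) and 0 with cortical neuron markers as a covariate. The single-treatment results are contrasts of the same fit that compare fewer mice, and the family sums have fewer samples. For the covariate the cause was not tested. Leaving out 1 mouse gave 2 to 3. In the chromosome 17 interval 7 genes were called, against 1, 0, 2 and 3 in those settings, 4 to 8 with 1 mouse left out and 11 without mice 197 and 905, a setting added after the data were seen. H2-K1 stayed negative in all 33 alternatives (-0.68 to -0.51) and passed in 30, and B2m in all 33 (-0.32 to -0.23) and passed in 29. With 1 mouse left out, 0 to 0 genes were called for amphetamine and for the interaction. Over all genes, 2149 calls between the lines became 553 in saline mice, 193 in amphetamine mice, 609 with family sums and 463 with the cortical covariate. The groups share no replicate numbers, and pairing was by parents: in limma-voom with the family as a block, 2 of the 8 genes were called between the lines, 0 for amphetamine and 0 for the interaction. Class II genes rest on under 60 reads per gene and mouse, or up to 115 for Cd74, and the alleles of these mice were not analysed here.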

Other observations

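H2-T22, which was not called between the lines, was at 1.42, 1.68, 1.71, 1.94 and 2.16 CPM in mice 457, 883, 197, 905 and 369 and between 3.34 and 8.98 CPM in the other 15. These 5 mice are of both lines and both treatments, and 4 of them had the highest H2-D1 of all mice, from 13.5 to 19.0 CPM. The remaining mouse, 905, had 12.0 CPM of H2-D1 and shares its parents with mouse 197. The split was drawn after the values had been seen, and its cause was not tested.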
